A study of Mus musculus with 36 samples.

Results

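The mouse mitochondrial genome carries 37 genes, of which 13 encode proteins (mRNA), 2 encode the ribosomal RNAs of the mitochondrial ribosome and 22 encode transfer RNAs. These were taken as every row whose gene name begins with mt-, and all 37 were found in each of the 3 deposited expression tables, among 57252 distinct gene identifiers in the series. All 37 lie on the mitochondrial chromosome (MT), where the tables list 0 other gene models. The study sequenced RNA of 4 mouse cell populations under 3 treatments, in 36 libraries, with 3 libraries in each of the 12 groups. Bone marrow gave granulocyte-macrophage progenitors (GMP) and monocytes. Macrophages associated with tumours (TAM) came from hosts of the melanoma line B16-F10 or of the colon carcinoma line MC38. Every sample is labelled wild type (WT) and as treated with OMV-SIRP, with OMV-SIRP-G or with PBS. The first 2 are engineered outer membrane vesicle preparations whose abbreviations the labels do not spell out. The labels give no age, and the bone marrow samples carry only the general cell type of bone marrow cells beside their titles. The design text speaks of 3 samples per group being pooled, and nothing says that the libraries came from separate animals, so the p-values below measure the spread between these libraries, which may be technical.

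Mitochondrial DNA is transcribed from both strands as long transcripts that run through many genes, and the tRNAs that lie between the mRNAs and rRNAs mark where those transcripts are cut. The proteins made from the mRNAs are all core subunits of the respiratory chain or of ATP synthase, and each works beside many subunits encoded in the nucleus. The mRNAs for all but mt-Nd6 receive a poly(A) tail, the rRNAs carry only short tails and tRNAs receive a short added end instead. In a library made with an mRNA kit the 3 classes are therefore recovered to different extents, so they are described apart, each gene is tested only against itself in other libraries, and a ratio between classes is given as a description with no test. In macrophages, respiration and its electron flow are known to differ between inflammatory and tissue-remodelling states.

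The 7 complex I subunits (NADH dehydrogenase) were mt-Nd1 at MT bases 2751 to 3707, mt-Nd2 at 3914 to 4951, mt-Nd3 at 9459 to 9806, mt-Nd4l at 9877 to 10173, mt-Nd4 at 10167 to 11544, mt-Nd5 at 11742 to 13565 and, alone among the mRNAs on the minus strand, mt-Nd6 at 13552 to 14070 (GRCm38). Complex III had 1 member, cytochrome b (mt-Cytb, 14145 to 15288). The 3 catalytic subunits of cytochrome c oxidase, complex IV, were mt-Co1 at 5328 to 6872, mt-Co2 at 7013 to 7696 and mt-Co3 at 8607 to 9390. ATP synthase, complex V, had mt-Atp8 at 7766 to 7969 and mt-Atp6 at 7927 to 8607, and the rRNAs of the small and large ribosomal subunits were mt-Rnr1 at 70 to 1024 and mt-Rnr2 at 1094 to 2675. None of these genes has an intron. The end of mt-Atp8 shares 43 bases with the start of mt-Atp6, shown here in capitals in the last 60 bases of the gene (MT:7910-7969, plus strand), because reads in this stretch belong to both genes.
mt-Atp8: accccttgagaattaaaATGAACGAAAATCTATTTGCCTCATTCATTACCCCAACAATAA
In the same way mt-Nd4l and mt-Nd4 share 7 bases.

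Each library held 13036567 to 19822660 reads assigned to genes, recovered as whole numbers from the deposited FPKM values (fragments per kilobase of gene, scaled to library depth) and gene lengths. The 13 mRNA genes together took 0.511% to 20.9% of a library's reads, the 2 rRNA genes 0.0442% to 1.17% and the 22 tRNA genes 0.00307% to 0.0454%, and the widest 95% Wilson interval of the mRNA share reached 0.0214 percentage points to either side, which covers counting error only. The bone marrow cells and the TAM were far apart: the mRNA share lay between 0.511% and 1.22% in all 18 bone marrow libraries and between 2.38% and 20.9% in all 18 TAM libraries. Tests were kept within a population, so this order is a description with no test.

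In GMP the mRNA share was 0.989%, 1.17% and 1.11% in the PBS libraries, 0.876%, 0.842% and 0.818% under OMV-SIRP and 1.22%, 1.20% and 1.22% under OMV-SIRP-G. The 3 GMP groups did not overlap, with OMV-SIRP lowest and OMV-SIRP-G highest. In monocytes it was 0.889%, 0.511% and 0.933% under PBS, 0.812%, 0.746% and 0.742% under OMV-SIRP and 0.663%, 0.702% and 0.695% under OMV-SIRP-G. The second PBS library of the monocytes was the lowest of all 36. In B16 TAM it was 14.7%, 19.1% and 17.4% under PBS, 20.9%, 18.2% and 18.03% under OMV-SIRP and 13.2%, 13.8% and 12.6% under OMV-SIRP-G. The OMV-SIRP-G libraries lay below all 6 others, and the PBS and OMV-SIRP libraries overlapped. In MC38 TAM it was 2.82%, 2.38% and 3.89% under PBS, 20.4%, 19.7% and 14.3% under OMV-SIRP and 5.82%, 5.95% and 5.56% under OMV-SIRP-G. No MC38 group overlapped another, and OMV-SIRP stood 5.97-fold above PBS by the group means.

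**Figure D1:**
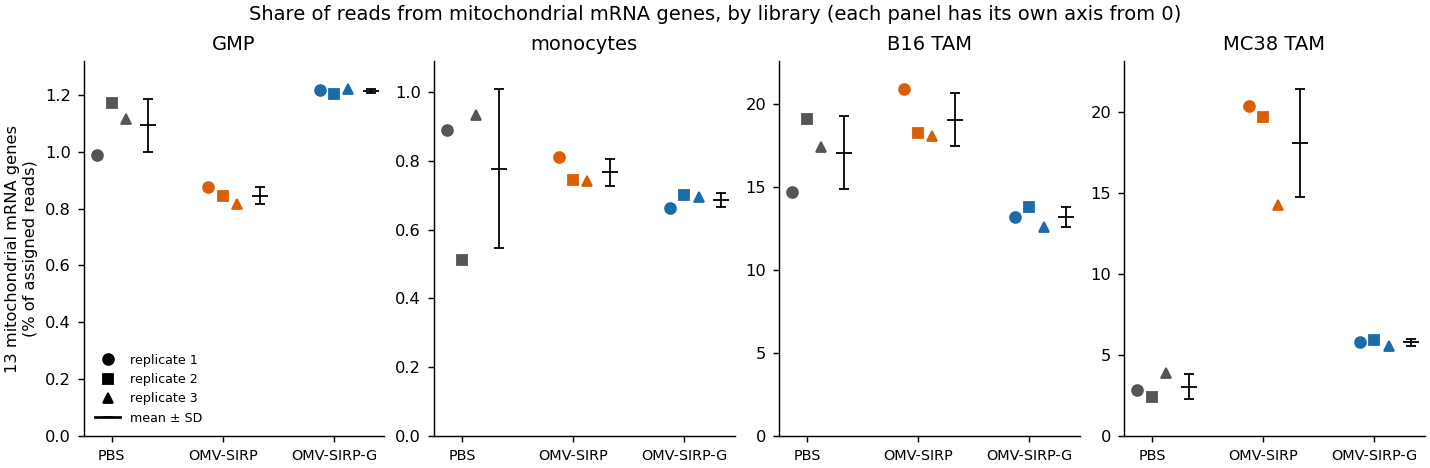
Share of each library's assigned reads that came from the 13 mitochondrial mRNA genes, in percent, by treatment; each of the 4 panels is a population with its own axis from 0, symbols mark replicates and the black bar is the mean ± SD of 3 libraries. The MC38 TAM panel spans 2.38% to 20.4%, with PBS at the bottom, OMV-SIRP-G between and OMV-SIRP at the top, while the GMP libraries lie between 0.818% and 1.22%.

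The order of the mRNAs by mean FPKM over the 9 libraries of a population was partly shared. mt-Co1 was highest, followed by mt-Cytb and then mt-Nd1, in all 4 populations, at 55792, 27051 and 22261 FPKM in B16 TAM, at 36757, 11148 and 8624 in MC38 TAM, at 3308, 1167 and 778 in GMP and at 3153, 851 and 521 in monocytes. Ranks 4 to 7 were held by mt-Nd2, mt-Nd4, mt-Nd5 and mt-Nd6 everywhere, in an order that varied between populations and at levels that often overlapped within one. In GMP, for instance, mt-Nd2 at 424 FPKM and mt-Nd4 at 423 FPKM were neighbours that did not differ beyond their spread. mt-Co2, mt-Co3, mt-Atp6, mt-Nd4l, mt-Nd3 and mt-Atp8 filled ranks 8 to 13 in every population, with mt-Atp8 last at 15.0 FPKM in B16 TAM, 11.5 in MC38 TAM, 1.10 in GMP and 0.995 in monocytes. Much of the sequence of at least 5 of these 6 low genes is also present in the nuclear genome, which is taken up below with the copies.

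The MC38 TAM gave the widest differences, and a property of its PBS libraries comes first. The summed FPKM of 8 macrophage markers was 61.9 to 169 in the 3 MC38 libraries labelled PBS, against 1552 to 2154 under OMV-SIRP and 1287 to 1318 under OMV-SIRP-G, and the macrophage receptor gene Mertk was at 0 in all 3 PBS libraries. All 8 markers were higher in each treated group than in PBS. A list of 8 neutrophil markers ran the other way, at 248 to 549 summed FPKM under PBS against 30.5 to 156 and 32.0 to 47.8. Cell make-up and treatment therefore cannot be told apart in the MC38 comparisons with PBS, and in such bulk samples fewer cells of a type cannot be told apart from less RNA per cell. The threshold used throughout is a Benjamini-Hochberg adjusted p under 0.05 in limma.

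All 13 mitochondrial mRNAs were higher in MC38 TAM under OMV-SIRP than under PBS, by 1.83 to 3.68 on the log2(FPKM + 1) scale, with a median of 2.43 against 0.03 over all 14089 genes tested. Of all genes tested, 7.40% were called higher in this comparison. In complex IV, mt-Co1 was at 5837, 5118 and 8270 FPKM in the PBS libraries and at 98595, 85716 and 61531 FPKM under OMV-SIRP. The lowest treated library was thus several times the highest PBS library, and the log2 change was 3.68 ± 0.20 (SE, n = 3 against 3; limma adjusted p = 7.33e-05), a 12.8-fold difference of means. mt-Co2 (2.80 ± 0.23, limma adjusted p = 0.000423) and mt-Co3 (3.03 ± 0.30, limma adjusted p = 0.000815) rose with it. In complex III, mt-Cytb was at 3719, 3189 and 5726 FPKM under PBS and at 23860, 30650 and 14535 FPKM under OMV-SIRP, groups that did not overlap, with a change of 2.43 ± 0.28 (limma adjusted p = 0.00146).

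Complex I and complex V followed. mt-Nd1 changed by 2.09 ± 0.26, mt-Nd2 by 1.83 ± 0.28, mt-Nd4 by 2.36 ± 0.25 and mt-Nd5 by 2.13 ± 0.32 on the log2 scale, with limma adjusted p-values of 0.00211, 0.00578, 0.0011 and 0.00505. mt-Nd2 had the smallest change of the 13, from 2206, 1634 and 2844 FPKM to 8067, 11281 and 5014 FPKM, and its groups still did not overlap. The minus-strand mt-Nd6 rose by 1.98 ± 0.32 (limma adjusted p = 0.00648). mt-Atp6 rose by 2.97 ± 0.27 (limma adjusted p = 0.000433), while mt-Atp8 rose by 3.41 ± 0.52 (limma adjusted p = 0.00543) from a level of 1.02 to 1.57 FPKM that rested on 4 or 5 reads a library. The low mt-Nd3 and mt-Nd4l changed by 2.05 ± 0.25 and 2.67 ± 0.40 (limma adjusted p = 0.00196 and 0.00512). Leaving out any 1 of the 6 libraries kept the count at 13, and rescaling to total assigned reads gave a median of 2.05 on the log2 scale with the same direction for each gene.

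The rRNAs moved less. mt-Rnr1 was at 1935, 1787 and 4153 FPKM under PBS and at 5767, 5695 and 4177 FPKM under OMV-SIRP, so that the third replicates of both groups nearly met, and its change was 1.09 ± 0.29 (limma adjusted p = 0.0422). That call was lost, with the direction kept, when reads were rescaled to total assigned reads (limma adjusted p = 0.0961), and without PBS replicate 1 or 2 or OMV-SIRP replicate 1 or 2 (limma adjusted p = 0.0984 to 0.123). mt-Rnr2 overlapped between the groups (2199, 2036 and 3895 FPKM against 4374, 3818 and 3129 FPKM; log2 change 0.53 ± 0.23, limma adjusted p = 0.17). The ratio of summed mRNA FPKM to summed rRNA FPKM was accordingly 3.39 to 4.60 in the PBS libraries and 14.3 to 18.4 under OMV-SIRP.

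Under OMV-SIRP-G, 4 of the 13 mRNAs rose against PBS in MC38 TAM, in a comparison in which 13.1% of all genes tested were called higher, and the 4 were the contiguous run of the genome from mt-Co1 to mt-Co3 less the short mt-Atp8. mt-Co1 was at 22210, 22474 and 21062 FPKM, above every PBS library (log2 change 1.80 ± 0.20, limma adjusted p = 0.000927). mt-Co3 rose by 1.64 ± 0.30, mt-Atp6 by 1.58 ± 0.27 and mt-Co2 by 0.96 ± 0.23, with limma adjusted p-values of 0.00677, 0.00463 and 0.0205. mt-Atp8, which lies between mt-Co2 and mt-Atp6, had a difference of 1.54 ± 0.52 that did not pass (limma adjusted p = 0.0666). The genes outside this run had differences of 0.10 to 1.21 and none passed. Among them mt-Nd1 (0.40 ± 0.26), mt-Nd2 (0.10 ± 0.28) and mt-Nd3 (0.14 ± 0.25) overlapped with PBS, and mt-Cytb did not (0.61 ± 0.28, limma adjusted p = 0.157). The run depends on the threshold, since mt-Nd4l outside it (1.21 ± 0.40, limma adjusted p = 0.064) changed more than mt-Co2 inside it. Leaving out 1 library gave counts of 3 to 5. Nearly all of the sequence of mt-Co2, mt-Atp6 and mt-Co3 is also present in the nuclear copy described below. The median over the 13 was 0.70 against 0.07 over all genes tested, and neither rRNA passed (mt-Rnr1 -0.18 ± 0.29, mt-Rnr2 -0.60 ± 0.23), with mt-Rnr2 lower at a limma adjusted p of 0.0279 after rescaling to total assigned reads.

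Between the treated MC38 groups the mRNAs were lower under OMV-SIRP-G. Only 0.383% of all genes tested were called in this comparison, 54 of 14089, and 7 of the 13 mitochondrial mRNAs were among them, all lower, where 0.234% of all genes tested were called lower. These were mt-Co1 (-1.88 ± 0.20, limma adjusted p = 0.00899), mt-Co2 (-1.85 ± 0.23, limma adjusted p = 0.0199), mt-Nd3 (-1.92 ± 0.25, limma adjusted p = 0.0222), mt-Nd4, mt-Cytb, mt-Nd1 and mt-Nd2. In 12 of the 13 the groups did not overlap, the exception being mt-Atp8, where 22.5% of all genes tested had groups that did not overlap. The median was -1.69 against 0.05 over all genes tested, and the rRNAs had differences of -1.26 ± 0.29 (mt-Rnr1) and -1.12 ± 0.23 (mt-Rnr2) that did not pass (limma adjusted p = 0.124 and 0.0966). The count rested on single libraries: it was 0 without any 1 of the 3 OMV-SIRP-G libraries, 1 without OMV-SIRP replicate 1 and 11 without OMV-SIRP replicate 3, and every mRNA stayed below 0 in each of these fits. OMV-SIRP replicate 3 was the lowest of its group in every mRNA but mt-Atp8. Several marker lists also separated these groups. The summed FPKM of the macrophage list was lower under OMV-SIRP-G in every library, as given above, although 0 of its 8 genes passed. The fibroblast list stood at 38.2 to 97.0 summed FPKM under OMV-SIRP and 19.5 to 20.8 under OMV-SIRP-G, and the dendritic cell list at 40.5 to 474 and 671 to 747. A list of 7 nuclear RNAs and histone genes, read as a sign of RNA quality, stood at 191 to 230 and 260 to 274. Their part in the mitochondrial values was not tested.

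**Figure D2:**
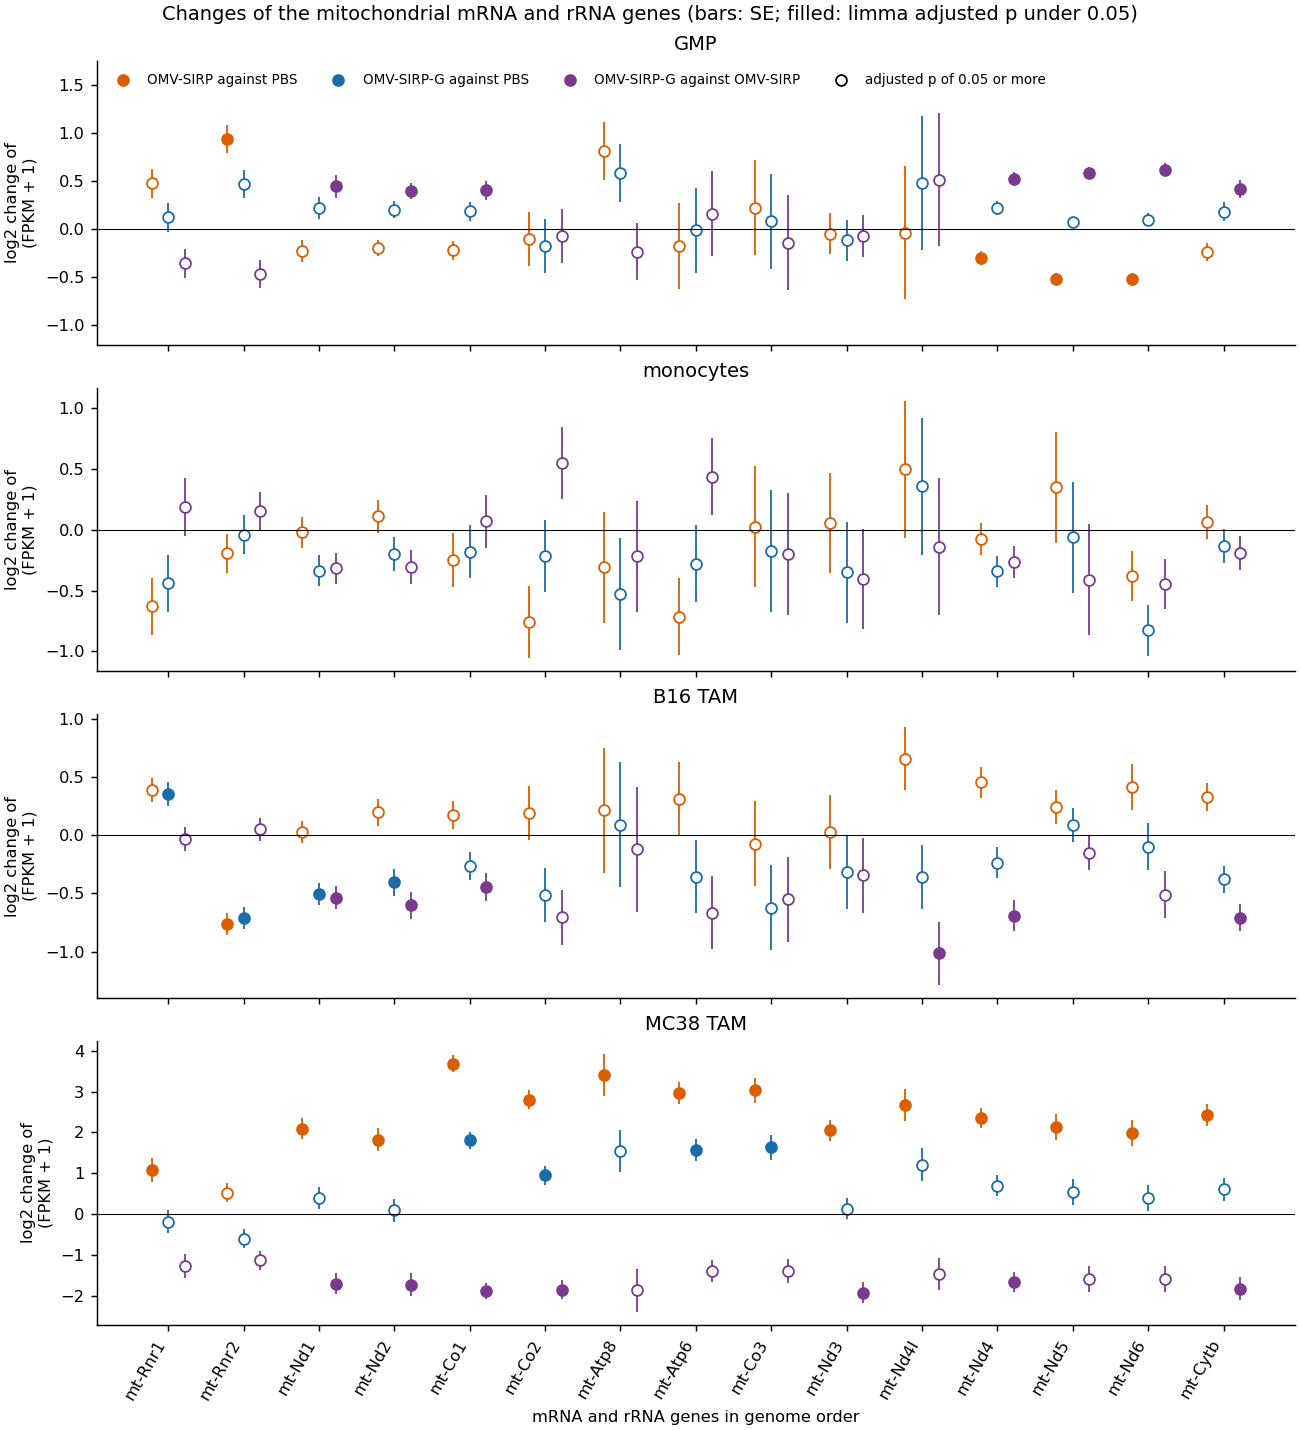
Change of each mitochondrial mRNA and rRNA gene on the log2(FPKM + 1) scale in genome order, in 3 comparisons for each of the 4 populations; bars are the SE of the limma fit over 9 libraries, filled circles passed an adjusted p under 0.05 and open circles did not, and each panel has its own axis. In MC38 TAM the OMV-SIRP changes run from 1.83 to 3.68 for the mRNAs with mt-Co1 highest, and the OMV-SIRP-G changes against PBS are filled for mt-Co1, mt-Co2, mt-Atp6 and mt-Co3 among the mRNAs.

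The make-up of the mRNA pool differed in the MC38 PBS libraries. mt-Co1 made up 30.7%, 32.2% and 30.3% of the summed mRNA FPKM there, against 58.4%, 49.0% and 58.8% under OMV-SIRP and 52.9%, 52.8% and 52.7% under OMV-SIRP-G. These PBS libraries were the lowest 3 of all 36, since mt-Co1 made up 40.0% to 57.6% in the other 3 populations. The ratio of mRNA to rRNA was lowest in the same 3 libraries, and it was 10.6 to 10.9 under OMV-SIRP-G. The macrophage markers were low in these same 3 libraries, as given above, and what part that has in either measure was not tested.

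**Figure D3:**
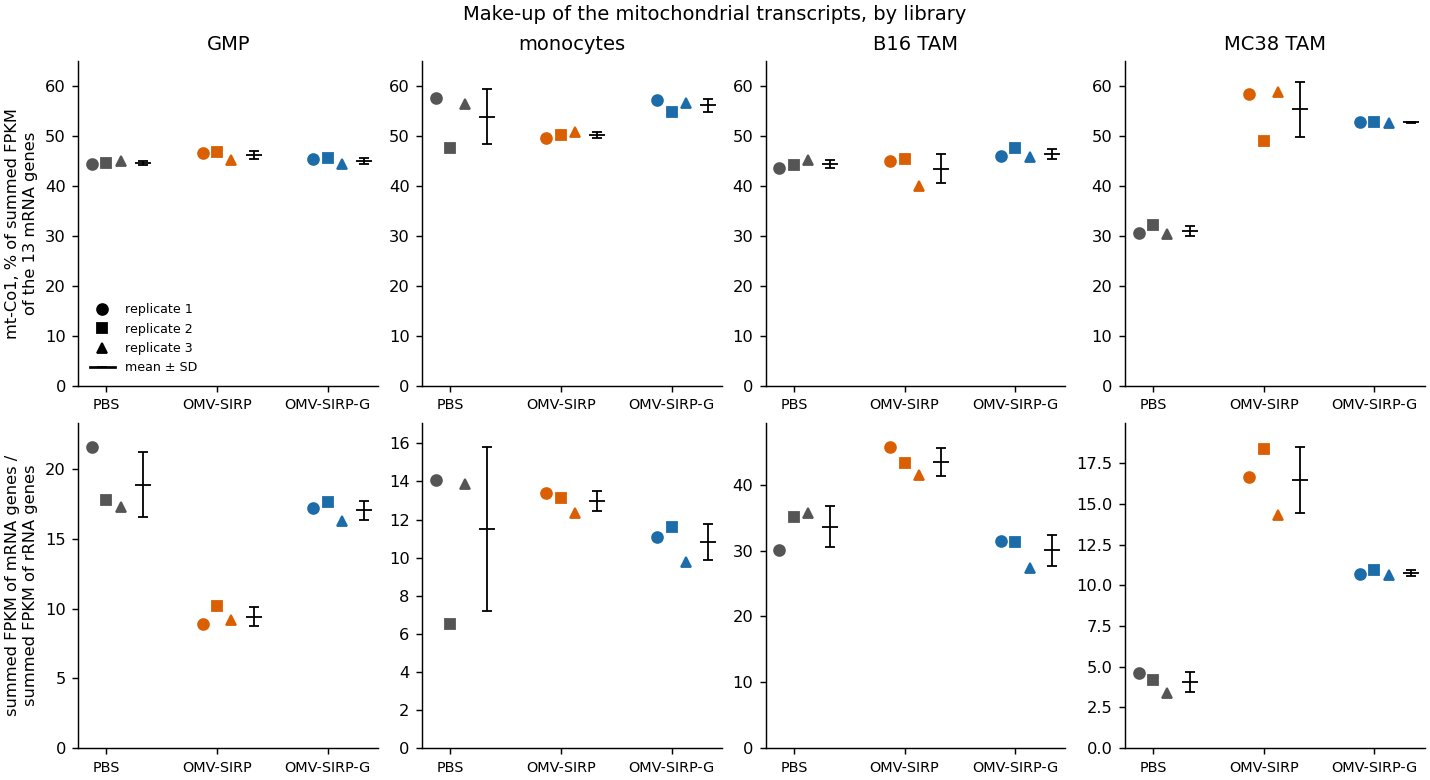
Top row, mt-Co1 as a percent of the summed FPKM of the 13 mRNA genes; bottom row, summed FPKM of the mRNA genes divided by that of the 2 rRNA genes; symbols mark replicates, the black bar is the mean ± SD of 3 libraries and all axes start at 0. The MC38 PBS libraries sit at 30.3% to 32.2% and at ratios of 3.39 to 4.60, and GMP under OMV-SIRP sits at ratios of 8.91 to 10.2 below the other GMP libraries.

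In B16 TAM the mRNAs under OMV-SIRP did not pass the test against PBS, and under OMV-SIRP-G several were lower. In OMV-SIRP against PBS 0 of 13 were called (limma), 3 had an unadjusted p under 0.05, all higher, and limma voom on the recovered reads called 0. That comparison called 1.45% of all genes tested in either direction, and the median mRNA difference was 0.21 against -0.01 over all genes. mt-Nd4 alone had groups that did not overlap, as had 16.6% of all genes tested, at 5511, 7951 and 6754 FPKM under PBS against 9895, 8039 and 9589 FPKM (0.46 ± 0.13, limma adjusted p = 0.201).

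The 2 rRNAs of B16 TAM went in opposite directions, although they are neighbours in the genome. mt-Rnr2 was at 2151, 2416 and 2074 FPKM under PBS, 1402, 1287 and 1225 FPKM under OMV-SIRP and 1267, 1351 and 1432 FPKM under OMV-SIRP-G. Every treated library was below every PBS library, and mt-Rnr2 fell in both comparisons (-0.76 ± 0.10, limma adjusted p = 0.00322, and -0.71 ± 0.10, limma adjusted p = 0.000869). mt-Rnr1 was at 1514, 1708 and 1512 FPKM under PBS, 2109, 1814 and 2276 FPKM under OMV-SIRP and 1916, 2027 and 2088 FPKM under OMV-SIRP-G. Every treated library was above every PBS library, and only the second comparison passed (0.39 ± 0.10, limma adjusted p = 0.144, and 0.35 ± 0.10, limma adjusted p = 0.0451). The latter call was lost when any 1 of the 6 libraries was left out, at limma adjusted p-values of 0.0605 to 0.15.

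In OMV-SIRP-G against PBS 2 of the 13 B16 mRNAs were lower, where 7.28% of all genes tested were called lower. mt-Nd1 was at 23490, 26611 and 23476 FPKM under PBS and 17070, 17744 and 16816 FPKM under OMV-SIRP-G, with no overlap (-0.51 ± 0.10, limma adjusted p = 0.00541). mt-Nd2 fell by 0.41 ± 0.11 on the log2 scale (limma adjusted p = 0.0389), and mt-Cytb missed the threshold (-0.38 ± 0.12, limma adjusted p = 0.0522). The median was -0.36 against -0.03 over all genes tested. The count was 4 without PBS replicate 1 and 1 without any 1 of the other 5 libraries.

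In OMV-SIRP-G against OMV-SIRP 6 of the 13 B16 mRNAs were lower, where 5.62% of all genes tested were called lower, and all 13 differences were below 0 with a median of -0.55 against -0.02 over all genes. mt-Cytb was at 35269, 29982 and 35732 FPKM under OMV-SIRP and 20811, 21062 and 19750 FPKM under OMV-SIRP-G, and the groups were well apart (-0.71 ± 0.12, limma adjusted p = 0.00348). In complex I, mt-Nd1 fell by 0.54 ± 0.10, mt-Nd2 by 0.60 ± 0.11, mt-Nd4 by 0.69 ± 0.13 and mt-Nd4l by 1.02 ± 0.27 on the log2 scale. In complex IV, mt-Co1 fell by 0.44 ± 0.12 (limma adjusted p = 0.0388). mt-Nd5 overlapped between the groups (-0.16 ± 0.15), as did both rRNAs (mt-Rnr1 -0.03 ± 0.10, mt-Rnr2 0.05 ± 0.10).

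Marker levels moved with these B16 groups. The summed FPKM of 5 melanoma markers was 2800 to 3053 under PBS, 2288 to 2531 under OMV-SIRP and 773 to 879 under OMV-SIRP-G, while that of the 8 macrophage markers was 4858 to 5449, 4286 to 6247 and 9249 to 9768. All 5 melanoma markers fell and all 8 macrophage markers rose under OMV-SIRP-G in both of its comparisons. The 7 erythroid markers summed to 16535 to 17906 under PBS and to 2220 to 3267 in the 6 treated libraries, with 5 of 7 tested and all 5 lower in each treated group. The monocyte list stood at 198 to 227 under PBS, 222 to 271 under OMV-SIRP and 575 to 598 under OMV-SIRP-G, and the dendritic cell list at 109 to 110.4, 127 to 141 and 57.8 to 60.6. In the same order of groups the platelet list stood at 130 to 162, 259 to 449 and 760 to 884, and the T and NK cell list at 230 to 313, 85.0 to 108 and 89.5 to 114. The RNA quality list was lowest under OMV-SIRP, at 78.4 to 95.2, against 111 to 127 under PBS and 113 to 137 under OMV-SIRP-G. The part of these lists in the mitochondrial values was not tested.

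In GMP 7 of the 13 mRNAs were higher under OMV-SIRP-G than under OMV-SIRP, where 6.70% of all genes tested were called higher: mt-Nd1, mt-Nd2, mt-Nd4, mt-Nd5, mt-Nd6, mt-Cytb and mt-Co1, which are the 7 most abundant. mt-Nd5 was at 642, 662 and 626 FPKM under PBS, 474, 439 and 438 FPKM under OMV-SIRP and 670, 668 and 691 FPKM under OMV-SIRP-G. The OMV-SIRP libraries were below all 6 others, and the change between the vesicle groups was 0.59 ± 0.06 (limma adjusted p = 0.000347). mt-Nd6 rose by 0.62 ± 0.07 (limma adjusted p = 0.000556) and mt-Nd4 by 0.52 ± 0.07 (limma adjusted p = 0.00164), and the other 4 by 0.40 to 0.45. The 6 less abundant mRNAs had differences of -0.23 to 0.52 with SEs of 0.21 to 0.69, and none passed. The count fell to 3 without OMV-SIRP replicate 2, OMV-SIRP replicate 3, OMV-SIRP-G replicate 2 or OMV-SIRP-G replicate 3, and to 4 without OMV-SIRP-G replicate 1.

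Against PBS, 3 GMP mRNAs fell under OMV-SIRP, where 7.52% of all genes tested were called lower: mt-Nd5 (-0.51 ± 0.06, limma adjusted p = 0.000433), mt-Nd6 (-0.52 ± 0.07, limma adjusted p = 0.00102) and mt-Nd4 (-0.30 ± 0.07, limma adjusted p = 0.0223). These are neighbours in the genome, and mt-Nd6 is read from the opposite strand. The median over the 13 was -0.19 against 0.02 over all genes tested, and leaving out 1 library gave counts of 2 to 7, the highest without PBS replicate 1. After rescaling to total assigned reads 6 mRNAs were lower, in a fit in which 1825 of 12539 genes tested were called lower and 821 higher. In the same comparison mt-Rnr2 rose, from 155, 235 and 216 FPKM to 420, 347 and 381 FPKM without overlap (0.94 ± 0.14, limma adjusted p = 0.00243). mt-Rnr1 was also higher in every library, at 148, 216 and 231 FPKM against 297, 251 and 271 FPKM, but did not pass (0.48 ± 0.15, limma adjusted p = 0.0576). The mRNA to rRNA ratio was 17.3 to 21.6 under PBS, 8.91 to 10.2 under OMV-SIRP and 16.3 to 17.6 under OMV-SIRP-G.

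In OMV-SIRP-G against PBS 0 of 13 GMP mRNAs were called by limma, where 6.76% of all genes tested were called higher and 5.22% lower, although 2 had an unadjusted p under 0.05 and limma voom called 1. In 6 of the 13 the OMV-SIRP-G libraries lay above all PBS libraries, among them mt-Co1 (2900.5, 3577 and 3485 FPKM against 3740, 3787 and 3759 FPKM; 0.19 ± 0.10, limma adjusted p = 0.263), where 30.3% of all genes tested had groups that did not overlap. The first PBS library was the lowest of its group in 11 of the 13 mRNAs. Beside these GMP results, 8 neutrophil markers summed to 21730 to 31601 FPKM under PBS, 44681 to 47557 under OMV-SIRP and 28057 to 29909 under OMV-SIRP-G, and all 8 rose under OMV-SIRP. The 7 erythroid markers summed to 39.8 to 56.6 FPKM under PBS and to 5.10 to 6.46 in the treated libraries. The RNA quality list had the same order of groups as the mRNA share, at 205 to 222 under OMV-SIRP, 230 to 279 under PBS and 289 to 315 under OMV-SIRP-G. The macrophage list stood at 199 to 225 under PBS, 252 to 262 under OMV-SIRP and 325 to 343 under OMV-SIRP-G, and the platelet list at 35.3 to 40.3, 50.1 to 54.6 and 73.6 to 76.0. A list of eosinophil, mast cell and basophil markers stood at 3288 to 4281, 2470 to 2782 and 2916 to 3031 in the same order of groups. Their part in the mitochondrial values was not tested.

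In monocytes no mRNA passed in any comparison, and 1 library decided what was seen against PBS. The second PBS library had 2517 FPKM of mt-Co1 against 3958 and 4099 in the other 2, 125 FPKM of mt-Nd5 against 440 and 465, but 565 FPKM of mt-Nd6 against 377 and 416. It was thus the lowest of its group for mt-Co1, mt-Nd5, mt-Cytb, mt-Nd2, mt-Nd4 and mt-Nd4l and the highest for mt-Nd6, mt-Nd1, mt-Nd3, mt-Co2, mt-Atp6, mt-Atp8 and both rRNAs, and mt-Nd6 made up 10.7% of its mRNA FPKM against 5.49% and 5.73%. It also stood apart in markers, with summed FPKM of 426 against 138 and 145 for the erythroid list and 6331 against 2384 and 2634 for the neutrophil list. The erythroid list also separated the groups, at 138 to 426 under PBS against 8.51 to 21.3 in the treated monocyte libraries. The RNA quality list stood at 402 to 531 under PBS, 358 to 399 under OMV-SIRP and 306 to 316 under OMV-SIRP-G, and the progenitor list at 1003 to 2130, 586 to 664 and 411 to 486. The part of these lists in the mitochondrial values was not tested.

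With all libraries, limma called 0 of 13 monocyte mRNAs in OMV-SIRP against PBS (8.53% of all genes tested called; 1 at an unadjusted p under 0.05; voom 0), 0 in OMV-SIRP-G against PBS (3.67%; 3; voom 0) and 0 in OMV-SIRP-G against OMV-SIRP (2.44%; 1; voom 0). Their medians were -0.02, -0.21 and -0.22 on the log2 scale, against -0.03, -0.01 and 0.01 over all genes tested. The difference of mt-Nd6 under OMV-SIRP-G came nearest, from 377, 565 and 416 FPKM to 228, 312 and 223 FPKM (-0.83 ± 0.21, limma adjusted p = 0.0797). Without PBS replicate 2, 1 mRNA fell under OMV-SIRP, mt-Co1 (-0.48 ± 0.06, limma adjusted p = 0.00109). Without it, 6 fell under OMV-SIRP-G, namely mt-Co1 (-0.41 ± 0.06, limma adjusted p = 0.00476), mt-Nd5 (-0.68 ± 0.14), mt-Nd6 (-0.66 ± 0.16), mt-Nd4 (-0.38 ± 0.10), mt-Nd2 (-0.31 ± 0.08) and mt-Nd1 (-0.28 ± 0.07). The shares of all genes called that are given above belong to the fit with all libraries. The share in this refit is not given here, so the counts of 1 and 6 cannot be set against it. The remaining 2 PBS libraries of mt-Co1, 3958 and 4099 FPKM, lay above all 6 treated libraries, which ranged from 2824 to 3075 FPKM.

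The tRNA genes are 59 to 75 bases long, and few of them gathered reads. The filter on low values, FPKM no lower than 1 in 3 or more libraries, was passed by 16 of 22 in B16 TAM, 15 in GMP, 14 in MC38 TAM and 13 in monocytes, and mt-Tf and mt-Td had 0 reads in all 36 libraries. The proline tRNA mt-Tp was first and the cysteine tRNA mt-Tc second in every population, with mean FPKM of 2314 and 516 in B16 TAM, 1857 and 455 in MC38 TAM, 309 and 154 in GMP and 220 and 161 in monocytes. The 8 tRNA genes on the minus strand had higher medians than the 14 on the plus strand in all 4 populations, at 75.6 against 3.57 FPKM in B16 TAM and 14.8 against 0.976 FPKM in monocytes. Whether reads were counted by strand is not given in the sources used here, so reads of a minus-strand tRNA cannot be told from reads of the long plus-strand transcript over it, and the same holds for mt-Nd6. The sequences of 5 tRNA genes described below are given 5′ to 3′ with the anticodon in capitals, to show how short the measured features are and how they differ: the proline tRNA (MT:15356-15422, minus strand), the cysteine tRNA (MT:5192-5257, minus), the asparagine tRNA (MT:5089-5159, minus), the first leucine tRNA (MT:2676-2750, plus) and the tryptophan tRNA (MT:4950-5016, plus).
mt-Tp: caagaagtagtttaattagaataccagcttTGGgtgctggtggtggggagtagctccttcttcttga
mt-Tc: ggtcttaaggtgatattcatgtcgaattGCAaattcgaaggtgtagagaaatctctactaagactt
mt-Tn: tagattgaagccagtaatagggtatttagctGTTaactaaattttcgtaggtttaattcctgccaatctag
mt-Tl1: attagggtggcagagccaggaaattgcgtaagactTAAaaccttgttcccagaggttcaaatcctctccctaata
mt-Tw: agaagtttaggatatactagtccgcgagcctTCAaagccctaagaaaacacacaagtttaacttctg

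In B16 TAM 3 tRNAs fell under both treatments against PBS, of 16 tested, where 0.566% and 7.28% of all genes tested were called lower. mt-Tl1, which lies directly between mt-Rnr2 and mt-Nd1, was at 699, 910 and 804 FPKM under PBS, 304, 279 and 205 FPKM under OMV-SIRP and 135, 183 and 243 FPKM under OMV-SIRP-G. All treated libraries were below all PBS libraries, with changes of -1.62 ± 0.21 (limma adjusted p = 0.0043) and -2.13 ± 0.21 (limma adjusted p = 0.000144). mt-Tc fell by 1.40 ± 0.24 and 1.65 ± 0.24 on the log2 scale, and mt-Tn by 1.29 ± 0.18 and 1.59 ± 0.18, and neither overlapped with PBS. mt-Tp did not move with them between PBS and OMV-SIRP, at 2382, 2630 and 2445 FPKM against 2662, 2351 and 2566 FPKM. Between the treated B16 groups 0 of 16 tRNAs were called by limma (3 at an unadjusted p under 0.05), where 6.35% of all genes tested were called higher and 5.62% lower.

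In MC38 TAM 3 of the 14 tested tRNAs rose under OMV-SIRP against PBS, beside 7.40% of all genes called higher. mt-Tn was at 37.5, 6.99 and 43.4 FPKM under PBS and 1001, 834 and 935 FPKM under OMV-SIRP, far apart (5.27 ± 0.59, limma adjusted p = 0.00144), and mt-Tp and mt-Tc rose by 2.73 ± 0.24 and 2.69 ± 0.39. Under OMV-SIRP-G mt-Tp (1.24 ± 0.24) and mt-Tn (2.33 ± 0.59) rose against PBS, where 13.1% of all genes tested were called higher. The plus-strand genes mt-Th, mt-Ts2 and mt-Tl2, which lie side by side between mt-Nd4 and mt-Nd5, had 0 reads in all 3 PBS libraries and passed the filter on low values only through the OMV-SIRP-G libraries, so they are described with no test. mt-Tl2 had 78, 74 and 90 reads under OMV-SIRP-G and 0 in all 6 other MC38 libraries, which is at least 29.7-fold higher than PBS and at least 23.2-fold higher than OMV-SIRP, taking a floor of 3 reads per library. mt-Th had 20, 10 and 59 reads under OMV-SIRP-G (at least 10.8-fold above PBS) and mt-Ts2 had 3, 13 and 8 (at least 2.91-fold). Under OMV-SIRP, mt-Th had 40, 0 and 19 reads and mt-Ts2 had 4, 0 and 0, so the treated groups overlapped in both genes. Against OMV-SIRP, mt-Tp (-1.49 ± 0.24) and mt-Tc (-2.89 ± 0.39) fell under OMV-SIRP-G, beside 0.234% of all genes called lower.

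In monocytes the tryptophan tRNA mt-Tw was the 1 called of 13 tested in OMV-SIRP against PBS and in OMV-SIRP-G against OMV-SIRP, where 8.53% and 2.44% of all genes tested were called. It was at 19.5, 26.2 and 18.8 FPKM under PBS, 28.6, 34.4 and 36.02 FPKM under OMV-SIRP and 19.9, 17.8 and 17.4 FPKM under OMV-SIRP-G. OMV-SIRP lay above both other groups (0.60 ± 0.15 against PBS, limma adjusted p = 0.0428, and OMV-SIRP-G lower than it by -0.81 ± 0.15, limma adjusted p = 0.0302). In GMP limma called 0 of 15 tRNAs in OMV-SIRP against PBS, where 18.2% of all genes tested were called (1 at an unadjusted p under 0.05). It called 0 in OMV-SIRP-G against PBS (6.76% of all genes higher and 5.22% lower; 2 unadjusted) and 0 in OMV-SIRP-G against OMV-SIRP (14.8% called; 2 unadjusted).

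**Figure D4:**
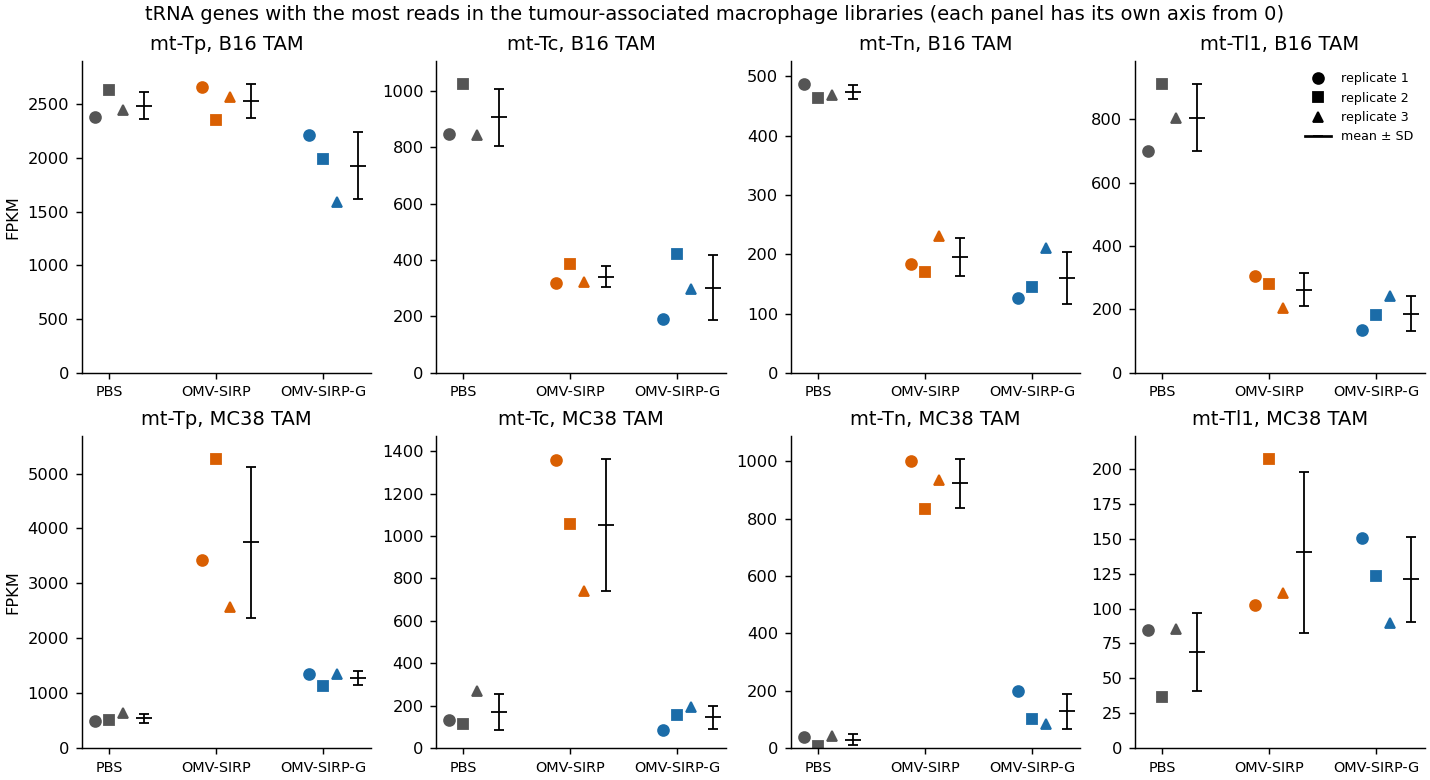
FPKM of the 4 tRNA genes mt-Tp, mt-Tc, mt-Tn and mt-Tl1 in B16 TAM (top row) and MC38 TAM (bottom row) by treatment; symbols mark replicates, the black bar is the mean ± SD of 3 libraries and each panel has its own axis from 0. In B16 TAM the PBS libraries of mt-Tc, mt-Tn and mt-Tl1 lie above all treated libraries, and in MC38 TAM the OMV-SIRP libraries of mt-Tp, mt-Tc and mt-Tn lie above all others.

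Mouse chromosome 1 carries a long nuclear copy of part of the mitochondrial genome, annotated as 7 pseudogenes on the minus strand. The fraction of 50-base windows of a gene that occur identically in transcripts elsewhere was 100% for mt-Co2, 99.9% for mt-Co3, 99.5% for mt-Atp6, 98.8% for mt-Nd4l, 98.0% for mt-Nd3, 62.2% for mt-Nd4 and 51.1% for mt-Co1, and 0% for mt-Cytb, mt-Nd1, mt-Nd6, mt-Atp8, mt-Rnr1 and every tRNA. It was 8.19% for mt-Nd2, 7.61% for mt-Nd5 and 1.04% for mt-Rnr2. Reads from such windows cannot be assigned to 1 place by sequence, so the levels of at least the first 5 genes are uncertain. Only annotated transcripts were searched, and stretches of the copy outside the 7 pseudogenes were not. A value of 0% therefore does not show that a gene lacks a nuclear copy. The first 60 bases of mt-Co2 (MT:7013-7072, plus strand) and of its copy Gm28661 (chr1:24615506-24615565, minus strand) show this, since they are the same and no base is in capitals.
mt-Co2: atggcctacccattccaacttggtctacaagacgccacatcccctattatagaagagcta
Gm28661: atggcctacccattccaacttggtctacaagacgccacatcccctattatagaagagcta
Over 681 aligned bases these genes had 0 differences. The first 60 bases of mt-Nd3 (MT:9459-9518, plus strand) and Gm28438 (chr1:24613060-24613119, minus strand) hold their 1 difference in 345 aligned bases, T3C, counted from the first base of the gene and shown in capitals.
mt-Nd3: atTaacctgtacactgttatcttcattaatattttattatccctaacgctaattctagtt
Gm28438: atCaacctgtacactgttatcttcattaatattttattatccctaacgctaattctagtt

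Levels of the genes and their copies are compared per length, as FPKM. The ratio of mt-Co2 to Gm28661 was 0.918 to 1.66 over all 36 libraries, with mt-Co2 at 1382, 1106 and 883 FPKM and Gm28661 at 1147, 667 and 827 FPKM in MC38 TAM under OMV-SIRP. The ratio of mt-Nd3 to Gm28438 was 0.0258 to 0.538, so the pseudogene was the higher in every library. For mt-Atp6 and Gm10925 the ratio was 0.592 to 1.24, and for mt-Co3 and Gm28437 it was 0.745 to 5.20. By contrast mt-Co1 was 61.3 to 400 times Gm29216, and mt-Nd4 46.9 to 436 times Gm28439. All 7 pseudogenes together took reads equal to 0.549% to 1.80% of those of the 13 mRNAs. In MC38 TAM 6 of the 7 copies tested rose under OMV-SIRP against PBS (median 2.74; 7.40% of all genes called higher), 3 rose under OMV-SIRP-G against PBS (13.1%) and 3 fell between the treated groups (0.234% called lower). Gm28661 changed by 2.83 ± 0.29 (limma adjusted p = 0.000887) in the first. In the other 3 populations 1 copy was called in all, lower in B16 TAM between the vesicle groups.

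**Figure D5:**
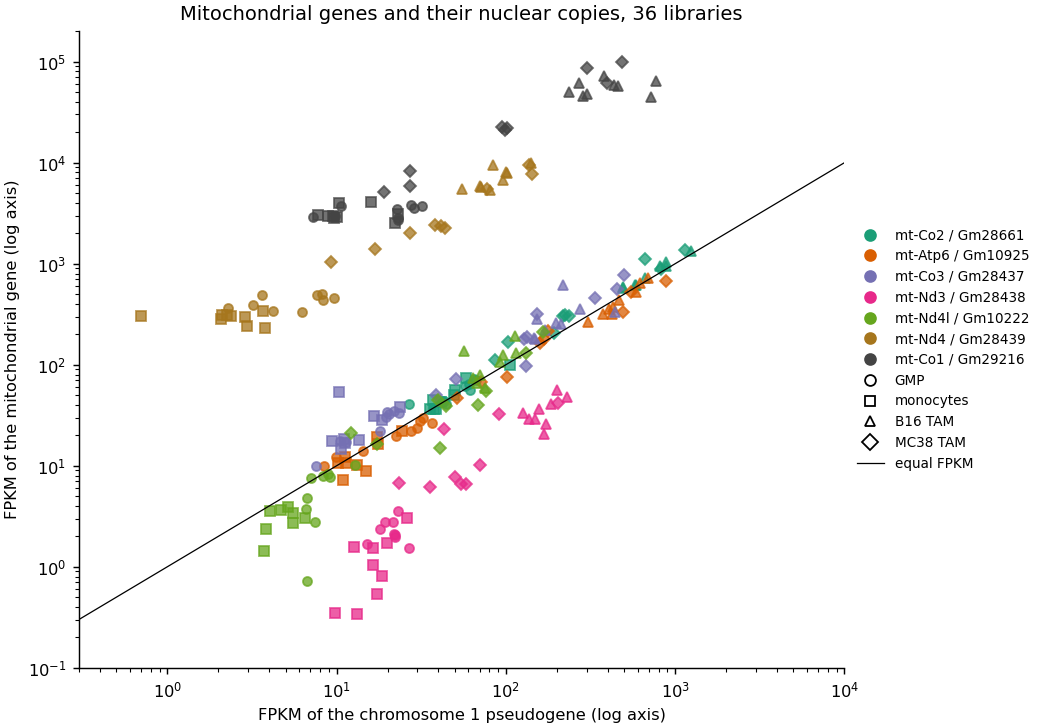
FPKM of each mitochondrial gene (vertical, log axis) against FPKM of its chromosome 1 pseudogene (horizontal, log axis) in 36 libraries; colours mark the 7 gene pairs, symbols the populations and the line equal values, and 1 pair of values with a 0 is not drawn. mt-Co2 and Gm28661 lie along the line at ratios of 0.918 to 1.66, while mt-Co1 and mt-Nd4 lie far above it.

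The nuclear genes of the same complexes were read from lists of 36 complex I, 4 complex II, 9 complex III, 13 complex IV and 15 complex V subunits. In MC38 TAM under OMV-SIRP against PBS 3 of 35 tested complex I genes, 1 of 4, 1 of 9, 4 of 13 and 4 of 15 rose and 0 fell, beside 7.40% of all genes called higher, and their medians lay between 0.23 and 0.63 on the log2 scale where the mitochondrial mRNAs had 2.43. Cox5b, a nuclear subunit of cytochrome c oxidase, went from 13.4 ± 2.78 to 36.4 ± 11.4 FPKM (mean ± SD, n = 3; 1.35 ± 0.24, limma adjusted p = 0.00962), and Ndufa3 of complex I changed by 1.22 ± 0.21. Under OMV-SIRP-G against PBS 4 of 35, 1 of 4, 2 of 9, 4 of 13 and 3 of 15 rose and 0 fell, beside 13.1% of all genes called higher, with Cox5b at 1.87 ± 0.24. Between the treated MC38 groups limma called 0 nuclear subunits in the 5 lists, beside 0.383% of all genes tested. In B16 TAM the single nuclear subunit called was Atp5b, the catalytic beta subunit of ATP synthase, lower under OMV-SIRP-G against PBS (-0.46 ± 0.10, limma adjusted p = 0.0126) and against OMV-SIRP (-0.37 ± 0.10, limma adjusted p = 0.0421). Of all genes tested, 7.28% and 5.62% were called lower in these comparisons, and 1.45% were called in either direction under OMV-SIRP against PBS.

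In GMP under OMV-SIRP against PBS 1 of 36 nuclear complex I genes, Ndufv3 (0.52 ± 0.08), and 2 of 13 nuclear complex IV genes, Cox4i2 (0.74 ± 0.10) and Cox5a (0.27 ± 0.05), rose, beside 18.2% of all genes called. Under OMV-SIRP-G against OMV-SIRP 3 of 36 and 2 of 13 fell, beside 14.8% called. Cox4i2, an alternative form of a regulatory oxidase subunit, went from 9.74 ± 0.61 to 2.08 ± 0.35 FPKM (-1.81 ± 0.10, limma adjusted p = 1.66e-05), and Ndufv3, Ndufa8, Ndufb3 and Cox5a fell with it. In monocytes 0 nuclear subunits were called in any comparison by limma. Of all genes tested, 8.53% were called there in OMV-SIRP against PBS, 3.67% in OMV-SIRP-G against PBS and 2.44% between the vesicle groups.

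Of 20 genes for mitochondrial transcription and DNA upkeep, 19 were tested in GMP, where 3 fell under OMV-SIRP, beside 7.52% of all genes called lower. There 0 were called under OMV-SIRP-G against PBS (6.76% of all genes higher and 5.22% lower), and 1 rose and 1 fell between the vesicle groups (14.8% called). Of 19 in monocytes 1 rose under OMV-SIRP (8.53% of all genes called) and 0 were called in the other comparisons (3.67% and 2.44%). Of 18 in B16 TAM 0 were called in any, beside 1.45% of all genes called under OMV-SIRP. Under OMV-SIRP-G, 7.28% of all genes were called lower there against PBS and 5.62% against OMV-SIRP. Of 20 in MC38 TAM 1 fell under OMV-SIRP-G against PBS, where the share of all genes called lower is not given here. Tfam, which packages mitochondrial DNA and starts its transcription, passed in no comparison, and in MC38 TAM it was at 13.8 ± 4.12 FPKM under PBS, 5.67 ± 3.10 under OMV-SIRP and 6.66 ± 0.97 under OMV-SIRP-G (limma adjusted p = 0.0785 and 0.144 against PBS). Polrmt, the mitochondrial RNA polymerase, fell in GMP under OMV-SIRP (-0.25 ± 0.06, limma adjusted p = 0.0176), rose in monocytes under OMV-SIRP (0.48 ± 0.09, limma adjusted p = 0.0139) and passed in no tumour comparison. Of 26 genes for mitochondrial RNA processing and decay only chosen ones are named, and the count called over the list is not given here. Lrpprc, which stabilises mitochondrial mRNAs, fell in MC38 TAM under both treatments against PBS. It went from 16.8 ± 1.58 to 10.3 ± 0.89 FPKM under OMV-SIRP (-0.65 ± 0.18, limma adjusted p = 0.0477) and to 8.11 ± 1.04 FPKM under OMV-SIRP-G (-0.97 ± 0.18, limma adjusted p = 0.00658). Cell make-up and treatment cannot be told apart in these comparisons, and the part of Lrpprc in the mitochondrial values was not tested. In monocytes Lrpprc rose under OMV-SIRP (0.59 ± 0.11, limma adjusted p = 0.0129) and was lower under OMV-SIRP-G than under OMV-SIRP (-0.53 ± 0.11, limma adjusted p = 0.0422). Mtpap, the mitochondrial poly(A) polymerase, passed in no comparison. For the regulators of mitochondrial biogenesis, too, only called genes are named and the count called is not given here. Ppargc1a fell in B16 TAM under OMV-SIRP-G, from 5.39 ± 0.41 to 2.19 ± 0.18 FPKM (-1.002 ± 0.19, limma adjusted p = 0.00559), and Esrra and Tfeb rose in MC38 TAM under OMV-SIRP-G by 1.49 ± 0.34 and 2.08 ± 0.37. Malat1, a nuclear RNA read here as a sign of RNA make-up, was at 45.6 ± 1.83 FPKM under PBS, 74.0 ± 43.7 under OMV-SIRP and 160 ± 2.86 under OMV-SIRP-G in MC38 TAM and rose in the last (1.79 ± 0.35, limma adjusted p = 0.00853), and its part in the mitochondrial values was not tested.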

How the data were processed

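RNA was extracted with TRIzol and made into libraries with an NEBNext mRNA kit, per the labels' protocols. Per the submitters' processing notes, the tools were HISAT2 2.0.5, StringTie and featureCounts 1.5.0-p3 on GRCm38; the strand setting is not given in the sources used here. The authors deposited FPKM values in 3 tables (GMP with monocytes, B16 TAM, MC38 TAM), which may be scaled apart, so tests stay within a population. Multiplying FPKM by gene length gave whole reads for 100% of values at a tolerance of 0.05; libraries held 13036567 to 19822660 reads.

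log2(FPKM + 1) of genes whose FPKM was 1 or more in 3 or more libraries was fitted with limma 3.58.1 (R 4.3.3) over the 9 libraries of a population, with Benjamini-Hochberg adjustment over all genes tested. The members and lists were chosen with earlier results of these data known. All mRNAs and rRNAs were named, with tRNAs that passed or were among the 3 with most reads, up to 3 called genes per nuclear list, Polrmt, Tfam, Lrpprc, Mtpap and Malat1; other names were chosen after values were seen. Shared sequence was searched in 50-base windows of the GENCODE M21 transcripts. Alternatives were the pseudocount, no filter, 2 rescalings, a fit of 2 groups, a replicate block, each library left out and, added after seeing the data, limma voom on recovered reads. Where leaving out a library left 2 in a group, the fit shared its spread over all groups. On simulated data for OMV-SIRP against PBS with 200 changed genes, 4-fold changes (log2 of 2) were recovered in 52% of cases and 2-fold changes (log2 of 1) in 9% in MC38 TAM (14365 genes). These shares were 71% and 27% in B16 TAM (12515 genes), 96% and 83% in GMP (12399) and 79% and 44% in monocytes (11664). Of the genes called in these simulations, 8.96% were false in MC38 TAM, 2.97% in B16 TAM, 4.79% in GMP and 3.91% in monocytes. The MC38 TAM value alone lay above the share of false calls that the adjusted p threshold is meant to allow.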

Additional observations from a re-analysis of the deposited data

Results flagged for a closer look

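These results are listed because every library of one population lay above its comparison group while every library of another population lay below it. The difference between populations was not tested, since tests were kept within a population. The share of reads of the 13 mRNA genes under OMV-SIRP was 5.97 times that under PBS in MC38 TAM and 0.774 times in GMP. Under OMV-SIRP-G against PBS it was 1.11 times in GMP and 1.91 times in MC38 TAM, and 0.773 times in B16 TAM. Under OMV-SIRP-G against OMV-SIRP it was 1.44 times in GMP, and 0.896 times in monocytes, 0.692 times in B16 TAM and 0.319 times in MC38 TAM.

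The ratio of summed mRNA FPKM to summed rRNA FPKM split the populations in the same manner. Under OMV-SIRP against PBS it was 1.29 times in B16 TAM and 4.06 times in MC38 TAM, and 0.498 times in GMP. Under OMV-SIRP-G against OMV-SIRP it was 1.81 times in GMP, and 0.836 times in monocytes, 0.69 times in B16 TAM and 0.653 times in MC38 TAM. The comparisons within a population share libraries, so they are not separate pieces of evidence.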

How the results depend on the processing

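None of the 42 mRNA, 5 rRNA and 19 tRNA differences that passed the test turned its sign under an alternative run. The 19 include mt-Tl2, mt-Th and mt-Ts2 in MC38 TAM, which are described above with no test. Their comparison groups held no reads, so their sign could not turn and they say nothing about stability. Of the differences that did not pass, 43 of 114 for mRNAs, 5 of 19 for rRNAs and 58 of 155 for tRNAs turned in at least 1 alternative, such as mt-Nd5 in monocytes under OMV-SIRP against PBS (-0.27 on the log2 scale without PBS replicate 2). For OMV-SIRP against PBS in GMP, 6 mRNAs passed when scaled to total assigned reads, 6 when scaled to reads outside the mitochondrial genome and 5 with voom on recovered reads (main 3). The fit scaled to total assigned reads also called more of all genes lower than the main fit did. No share of all genes called is set beside the other counts in this paragraph, so they are not read as results about the mitochondrial genes. voom gave 1 for OMV-SIRP-G against PBS in GMP (main 0). A fit of the 2 compared groups alone gave 2 in monocytes for OMV-SIRP-G against OMV-SIRP (main 0), 7 in MC38 TAM for OMV-SIRP-G against PBS (main 4) and 3 for OMV-SIRP-G against OMV-SIRP (main 7). Without a filter on low values the count was 1 in B16 TAM for OMV-SIRP-G against PBS (main 2) and 2 in MC38 TAM for OMV-SIRP-G against OMV-SIRP. The replicate block gave 1 and 0 in those comparisons. The labels give libraries a replicate number, and whether it marks a pairing is not settled. In no comparison did all 3 same-numbered pairs correlate above 0.1. In GMP, however, replicates 1 and 3 correlated more with their own number than with the others in every comparison. For PBS with OMV-SIRP these were 0.180 against at most 0.0159 for replicate 1 and 0.223 against at most -0.0008 for replicate 3. Leaving out 1 library gave 2 to 7 in GMP for OMV-SIRP against PBS, 0 to 1 for OMV-SIRP-G against PBS and 3 to 6 for OMV-SIRP-G against OMV-SIRP. It gave 0 to 1 in monocytes for OMV-SIRP against PBS and 0 to 6 for OMV-SIRP-G against PBS, 1 to 4 in B16 TAM for OMV-SIRP-G against PBS and 0 to 11 in MC38 TAM for OMV-SIRP-G against OMV-SIRP. The cause was not tested. The planned edgeR count test was not run, since the files hold FPKM.

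As a share of summed FPKM the mRNA genes took 28.7%, 32.4% and 23.8% in B16 TAM (PBS, OMV-SIRP, OMV-SIRP-G), 2.36%, 1.70% and 2.60% in GMP, 7.55%, 32.5% and 12.6% in MC38 TAM and 1.74%, 1.76% and 1.58% in monocytes. With protein-coding gene models in the denominator GMP under OMV-SIRP-G took 1.24%. Over all genes, the count called moved by over 1.5 times without the filter in monocytes for OMV-SIRP-G against OMV-SIRP (293 to 154), in B16 TAM for OMV-SIRP against PBS (182 to 112) and OMV-SIRP-G against OMV-SIRP (1502 to 925), and in MC38 TAM (1534 to 762, 2809 to 1725 and 54 to 16). With the replicate block it moved in monocytes (1026 to 520, 442 to 242 and 293 to 75) and in MC38 TAM between the vesicle groups (54 to 8, and to 93 with voom). Scaling to total assigned reads gave 2332 in MC38 TAM for OMV-SIRP against PBS, moved the share of higher calls there from 67.9% to 29.9%, and shifted the median of all genes by -0.29 on the log2 scale.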
